A study of Mus musculus with 8 samples.

Results

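Carbonic anhydrases interconvert carbon dioxide and bicarbonate. The genes described here are Car1, Car2, Car3, Car4 and Car8, and every probe set to which the platform annotation gives one of these symbols was taken. A probe set is the group of short oligonucleotides that reads one transcript on an Affymetrix array. The 5 genes had 6 probe sets among the 12422 tested, and they are 5 of the 8251 genes that had a probe set of a single symbol. RNA came from whole pancreas of mice aged 3 weeks, with 2 arrays in each of 4 groups. BDC2.5/NOD.scid mice carry the BDC2.5 transgene, the rearranged antigen receptor genes of a CD4 T cell clone that causes diabetes, together with the scid mutation. BDC2.5/NOD mice carry the transgene without scid. NOD.scid mice carry scid, a mutation of Prkdc that prevents the joining of antigen receptor genes, and have no transgene. NOD mice, the inbred strain that develops autoimmune diabetes and the background shared by all the groups, carry neither. The labels give no sex, and they describe pooled RNA, isolated 2 times from 6 animals each, and do not tell whether both arrays of a group share a pool. P-values therefore cover only the spread between the arrays hybridised, and that spread may be technical.

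In the pancreas, duct cells use carbonic anhydrase to make the bicarbonate that is secreted with the digestive enzymes. Car2 encodes the fast cytosolic enzyme and Car1 a slower cytosolic one; both are abundant in red cells, and Car2 is also found in duct cells and in acid-secreting cells of the stomach. Car3 encodes a cytosolic enzyme of low activity that is abundant in fat, liver and slow skeletal muscle. Car4 encodes a form anchored to the outer face of the plasma membrane, as on capillary endothelium. Car8 encodes a related protein that has lost the catalytic activity and binds the type 1 inositol trisphosphate receptor, and it is best known from Purkinje cells of the cerebellum. In the RefSeq annotation of GRCm38.p6, Car13, Car1, Car3 and Car2 follow each other with no other protein-coding gene between them. Car13 had no probe set of its own symbol here.

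The deposited values were read as log2, with a median of 4.27 over all tested probe sets and array medians of 4.24 to 4.30. As a check of the tissue, 9 of 10 measured acinar genes lay above that median on all arrays, and the median of the acinar list was 12.46 to 12.74. Arrays differed in the middle beta-actin control, which read 9.26 to 9.55 on BDC2.5/NOD.scid replicate 2, NOD.scid replicate 1 and NOD replicate 1, and 6.95 to 7.74 on the other 5 arrays. The labels do not say what distinguished these 3 arrays. None of them was from BDC2.5/NOD, so comparisons with that group cannot be fully separated from this difference. Group means were compared with limma over all 8 arrays, and p-values were adjusted by Benjamini-Hochberg over all 12422 probe sets with a threshold of 0.05. With 2 arrays a group, no overlap between groups is common: it occurred for 42.7% of all probe sets between BDC2.5/NOD.scid and NOD.scid, 56.2% between BDC2.5/NOD and NOD, 42.3% between NOD.scid and NOD, and 51.8% between BDC2.5/NOD.scid and BDC2.5/NOD. The comparisons share arrays, so they are not independent of each other.

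Car1, Car2 and Car3 varied between the groups, while Car4 and Car8 passed in no comparison. Between NOD.scid and NOD, 3 of the 6 probe sets passed, against 2.35% of all probe sets. Car2 and Car1 were higher in NOD.scid, as were 0.741% of all, and Car3 was lower, as were 1.61%. Between BDC2.5/NOD.scid and NOD.scid, Car2 and Car1 passed and both fell with the transgene, so 2 of the 6 were called, against 6.40% of all in either direction and 4.03% lower. Between BDC2.5/NOD and NOD, Car2 alone passed and was lower, 1 of 6 against 7.97% in either direction and 4.06% lower. Between BDC2.5/NOD.scid and BDC2.5/NOD, Car2 was higher and Car3 lower with scid, 2 of 6 against 8.35%, of which 2.99% were higher and 5.35% lower. The interaction, which is the transgene effect in NOD.scid minus the transgene effect in NOD, passed for Car2 and Car1, 2 of 6 against 4.72%. The median log2 difference of the 6 probe sets was -0.21 for the transgene in NOD.scid, against -0.01 over all probe sets, and 0.07 for NOD.scid against NOD, against 0.03 over all. It was -0.05 for the transgene in NOD (0.03 over all), 0.09 for scid with the transgene (-0.01 over all) and 0.03 for the interaction (-0.04 over all).

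**Figure D1:**
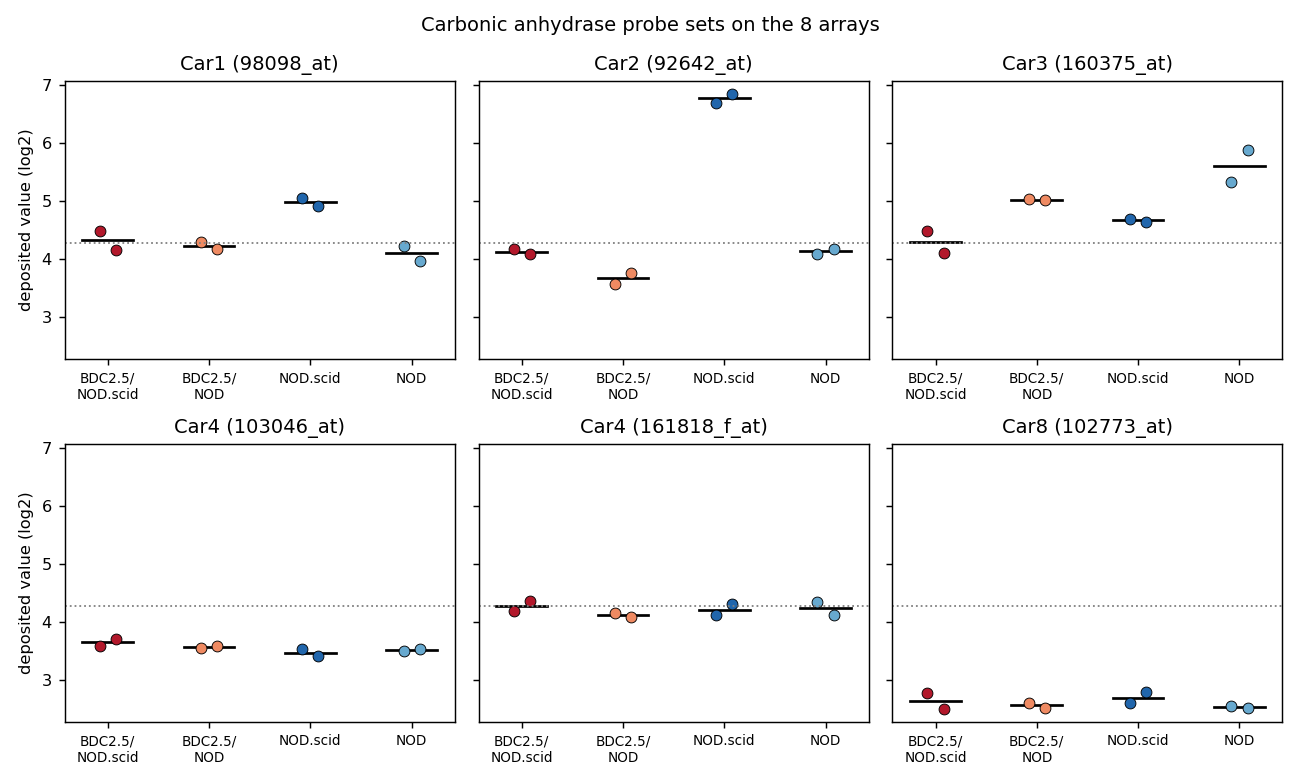
Deposited log2 values of the 6 carbonic anhydrase probe sets on the 8 arrays, by group; each point is 1 array, the short line is the mean of 2 arrays and the dotted line is the median of all tested probe sets, 4.27. Both NOD.scid arrays stand above the other 6 for Car2 and Car1, the NOD arrays are highest for Car3, and the Car4 and Car8 probe sets stay within a narrow band.

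**Figure D2:**
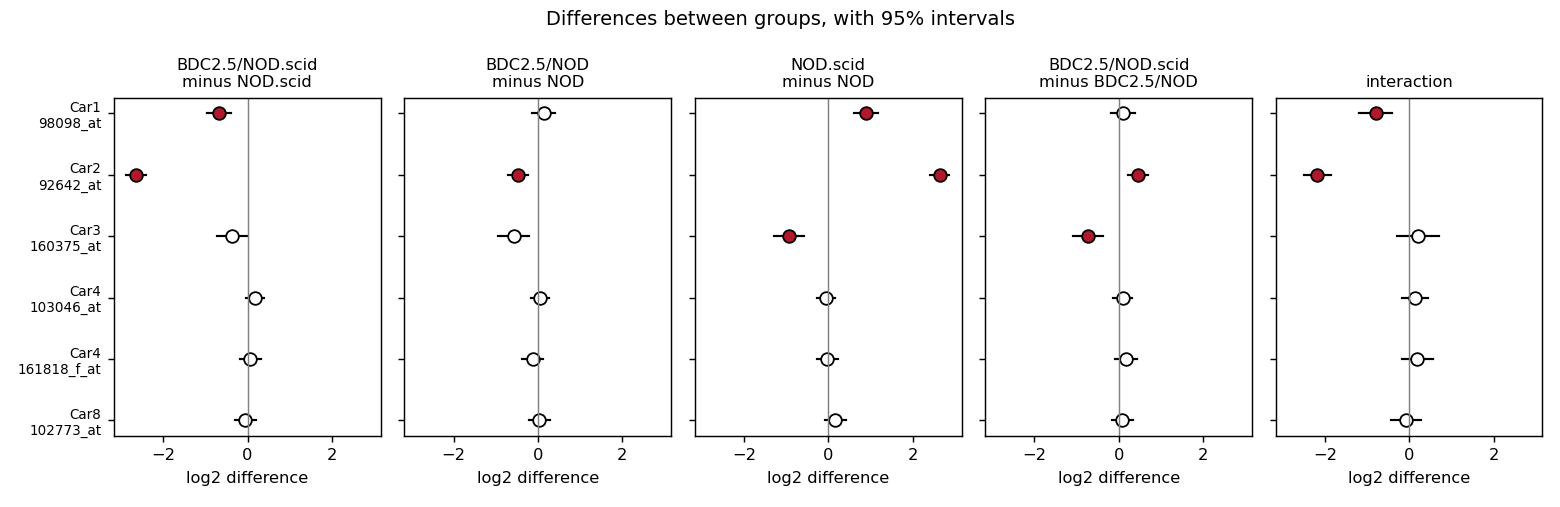
Log2 differences between groups for the 6 probe sets in the 5 comparisons, the first-named group minus the second, with limma's 95% interval as a bar; filled points passed an adjusted p of 0.05 over all probe sets. The largest differences are those of Car2, at -2.64 for BDC2.5/NOD.scid minus NOD.scid and 2.63 for NOD.scid minus NOD.

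Car2, the fast cytosolic enzyme, was set apart in NOD.scid. It read 4.17 and 4.09 in BDC2.5/NOD.scid and 3.57 and 3.77 in BDC2.5/NOD, against 6.70 and 6.85 in NOD.scid and 4.10 and 4.18 in NOD. Both NOD.scid arrays were thus more than 2 units above every other array. The means of BDC2.5/NOD.scid, 4.13 ± 0.06 (SD, n = 2), and NOD, 4.14 ± 0.06, differed by less than the spread between their arrays, and BDC2.5/NOD was lowest at 3.67 ± 0.14.

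With the transgene in NOD.scid mice, Car2 fell by 2.64 on the log2 scale (SE 0.11, 6.25-fold; limma adjusted p = 1.03e-08). Among the 500 probe sets called lower in that comparison, this was the largest log2 difference. In NOD.scid, Car2 was 2.63 higher than in NOD (SE 0.11, 6.21-fold; limma adjusted p = 1.29e-07), the largest among the 92 probe sets called higher. Both values rest on the same pair of NOD.scid arrays. They kept their sign and passed under all 19 alternatives tried for each, with ranges of -2.72 to -2.57 and 2.56 to 2.71. Between arrays of low actin control the 2 differences were -2.68 and 2.67, and between arrays of high actin control -2.61 and 2.60. Each of these, and of the like values for Car1 and Car3 below, sets 1 array against 1 array of the same comparison.

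The transgene effect on Car2 was smaller in NOD mice, where it fell by 0.47 (SE 0.11, 1.38-fold; limma adjusted p = 0.0186). The difference between the 2 transgene effects was -2.18 (SE 0.15; limma adjusted p = 3.64e-06) and passed under all 18 alternatives. With the transgene present, Car2 was 0.46 higher in BDC2.5/NOD.scid than in BDC2.5/NOD (SE 0.11; limma adjusted p = 0.0195). These 2 smaller differences lost their call when single arrays were left out. The first had an adjusted p of 0.218 without BDC2.5/NOD replicate 1, 0.0515 without BDC2.5/NOD replicate 2, 0.0624 without NOD replicate 1 and 0.0959 without NOD replicate 2. The second had 0.218 and 0.0553 without the same 2 BDC2.5/NOD arrays, and 0.0973 and 0.0545 without BDC2.5/NOD.scid replicates 1 and 2. Car2 lay below the median of all probe sets on every array outside NOD.scid. Whether those readings were above background was not tested, since no detection calls were used here.

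Car1, the slower red cell enzyme, was also highest in NOD.scid, with smaller differences. It read 4.48 and 4.16 in BDC2.5/NOD.scid and 4.30 and 4.17 in BDC2.5/NOD, against 5.06 and 4.92 in NOD.scid and 4.23 and 3.97 in NOD. The other 3 groups overlapped among themselves, and both NOD.scid arrays lay above all their arrays. Car1 fell by 0.67 with the transgene in NOD.scid (SE 0.13, 1.59-fold; limma adjusted p = 0.00757), and was 0.89 higher in NOD.scid than in NOD (SE 0.13, 1.85-fold; limma adjusted p = 0.00352). In NOD mice the transgene difference was 0.13 (95% interval -0.15 to 0.41; limma adjusted p = 0.603). Scid with the transgene gave 0.09 (-0.19 to 0.37; limma adjusted p = 0.777).

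The 2 transgene effects on Car1 differed by -0.80 (SE 0.18; limma adjusted p = 0.0268). That call was lost without BDC2.5/NOD replicate 1 (adjusted p = 0.153), BDC2.5/NOD replicate 2 (0.0866), BDC2.5/NOD.scid replicate 2 (0.0877), NOD.scid replicate 1 (0.0759) or NOD replicate 2 (0.0953). The transgene effect in NOD.scid was not called without BDC2.5/NOD.scid replicate 2, at -0.51 (adjusted p = 0.0838), or without NOD.scid replicate 1, at -0.60 (0.0615). It was -0.90 between the arrays of high and -0.44 between those of low actin control. The scid difference was not called without NOD replicate 2, at 0.76 (adjusted p = 0.0517), and was 0.83 and 0.95 within the high and low arrays.

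Across the 8 arrays, Car1 and Car2 had a Pearson r of 0.90, given as a description. The NOD.scid pair carried it: over the other 6 arrays r was -0.12. Car1 and Car2 thus shared their peak in NOD.scid and not their variation among the other groups. Their neighbour Car3 did not share that peak, with r of -0.26 to Car2 and -0.44 to Car1 over the 8 arrays.

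The genes most like Car2 were sought among 157 probe sets of a single symbol that varied with an SD of at least 0.5 over the 8 arrays. The closest was S100a9, a calcium-binding protein of neutrophils, with a Pearson r of 0.99 over 8 arrays and 0.80 over the 6 arrays outside NOD.scid. Camp, the neutrophil granule peptide cathelicidin, had 0.99 and 0.54. Hbb-b2, a beta globin, had 0.97 and 0.81, and Hemgn, a nuclear protein of red cell precursors, 0.98 and 0.23. Ctse, an aspartic protease found in stomach and in red cells, had 0.99 and 0.53 on its dimmest probe set, at a mean of 3.16 in BDC2.5/NOD.scid and 2.97 in BDC2.5/NOD, against 4.64 in NOD.scid and 3.05 in NOD. Its brighter probe sets did not show this, with differences of -0.22 and -0.42 between NOD.scid and NOD that did not pass (limma adjusted p = 0.535 and 0.352). The 8 points fall into 4 groups and may share pools, so no p is given.

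Genes of other cell types were read on the same arrays. The members of these lists were chosen with results of these data known. Of 11 measured red cell genes, 6 were higher in NOD.scid than in NOD (0.741% of all probe sets), and 5 fell with the transgene in NOD.scid (4.03% of all). In NOD, 2 of the 11 fell with the transgene (4.06% of all), and with the transgene present 2 were higher with scid (2.99% of all). For NOD.scid against NOD and for the transgene in NOD.scid, the median log2 differences of this list were 0.72 (0.03 over all probe sets) and -0.58 (-0.01 over all). The alpha globin gene Hba-a1 read 10.83 and 10.93 in BDC2.5/NOD.scid and 10.35 and 10.40 in BDC2.5/NOD, against 12.07 and 12.01 in NOD.scid and 11.10 and 10.92 in NOD. Its group means ranked like those of Car2, with NOD.scid highest and BDC2.5/NOD lowest. The Car2 means of NOD and BDC2.5/NOD.scid, however, differed by less than the spread between their arrays. The red cell genes Hemgn and Slc4a1 did not have this order and were lowest in NOD, at 2.48 and 4.39. Gata1 averaged 4.73 in NOD.scid against 4.75 in BDC2.5/NOD.scid, and Epb42 3.60 against 3.64, so neither was highest in NOD.scid. Hba-a1 fell by 0.64 with the transgene in NOD (limma adjusted p = 0.000735) and was 0.51 higher in BDC2.5/NOD.scid than in BDC2.5/NOD (limma adjusted p = 0.00283). Slc4a1, the chloride-bicarbonate exchanger of the red cell membrane, was 1.08 higher in NOD.scid than in NOD (limma adjusted p = 6.89e-05) and fell by 0.77 with the transgene in NOD.scid (limma adjusted p = 0.000469). The summed level of the red cell list, in log2 of summed linear values, was 11.11 to 11.19 in BDC2.5/NOD.scid and 10.68 to 10.71 in BDC2.5/NOD, against 12.24 to 12.30 in NOD.scid and 11.18 to 11.34 in NOD. The beta globin gene Hbb-b2 was 1.22 higher in NOD.scid than in NOD and fell by 1.43 with the transgene in NOD.scid, beside 2.63 and -2.64 for Car2. In a whole tissue, fewer cells of a type and less RNA per cell cannot be told apart.

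Of 9 neutrophil genes, 6 were higher in NOD.scid than in NOD (0.741% of all probe sets) and 5 fell with the transgene in NOD.scid (4.03% of all). In NOD, 2 of the 9, S100a8 and S100a9, fell with the transgene (4.06% of all). With the transgene present, S100a8 alone was higher with scid, 1 of 9 against 2.99% of all. The summed level of the neutrophil list was 7.82 to 8.03 in BDC2.5/NOD.scid and 7.75 to 7.84 in BDC2.5/NOD, against 8.94 to 9.01 in NOD.scid and 7.88 to 8.01 in NOD. S100a9 fell by 2.02 with the transgene in NOD.scid (limma adjusted p = 1.4e-07). The group means of S100a9, S100a8, Camp and Ngp ranked as those of Hba-a1 did, while those of Mpo and Prtn3 did not. Among 9 stomach and gut genes, only Tff1, a trefoil peptide of the stomach lining, passed. It was 1.27 higher in NOD.scid than in NOD (limma adjusted p = 1.17e-05), where 0.741% of all probe sets were higher. With the transgene in NOD.scid it fell by 1.08 (limma adjusted p = 1.68e-05), where 4.03% of all were lower. Atp4a, the proton pump subunit of the acid-secreting stomach cell, read 4.62 and 4.61 in BDC2.5/NOD.scid and 4.70 and 4.63 in BDC2.5/NOD, against 4.80 and 4.94 in NOD.scid and 4.47 and 4.52 in NOD. Its difference between NOD.scid and NOD was 0.37 and did not pass (limma adjusted p = 0.0767). The summed level of the stomach and gut list was 7.77 to 7.88 in BDC2.5/NOD.scid and 7.86 to 7.87 in BDC2.5/NOD, against 8.47 to 8.60 in NOD.scid and 7.69 in NOD. Without Tff1, which is the brightest gene of the list, the summed level of the other 8 was 6.65 to 6.67 in BDC2.5/NOD.scid and 6.69 to 6.72 in BDC2.5/NOD, against 6.70 to 6.74 in NOD.scid and 6.56 to 6.62 in NOD. The shift of that list was thus mostly that of Tff1. The red cell list without Hba-a1, its brightest gene, read 8.60 in BDC2.5/NOD.scid and 8.32 to 8.40 in BDC2.5/NOD. It read 9.45 to 9.54 in NOD.scid and 8.56 to 8.60 in NOD. The neutrophil list without Camp, its brightest gene, read 7.496 to 7.754 in BDC2.5/NOD.scid and 7.456 to 7.523 in BDC2.5/NOD. It read 8.568 to 8.667 in NOD.scid and 7.568 to 7.718 in NOD. The red cell and neutrophil lists were thus both still highest in NOD.scid.

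Macrophage and islet genes also differed with the transgene. Of 11 macrophage genes, 7 rose with the transgene in NOD.scid, where 6.40% of all probe sets passed in either direction. Among the 7 was Ctss, the protease cathepsin S, which rose by 2.61 (limma adjusted p = 9.84e-09). Between BDC2.5/NOD.scid and BDC2.5/NOD, 7 of the 11 were higher (2.99% of all probe sets). No macrophage gene passed for the transgene in NOD or for NOD.scid against NOD by limma, with 1 and 2 at an unadjusted p under 0.05. Their summed level was 9.66 to 9.81 in BDC2.5/NOD.scid and 8.78 to 8.80 in BDC2.5/NOD, against 8.74 to 8.87 in NOD.scid and 8.61 to 8.76 in NOD. Of 12 islet genes, 5 fell with the transgene in NOD.scid (4.03% of all probe sets) and 5 fell with it in NOD (4.06% of all). Ins2, which encodes insulin, fell by 1.45 with the transgene in NOD.scid (limma adjusted p = 3.99e-07). No islet gene passed between NOD.scid and NOD by limma, with 4 at an unadjusted p under 0.05. The summed islet level was 10.51 to 10.64 in BDC2.5/NOD.scid and 11.03 to 11.07 in BDC2.5/NOD, against 11.86 to 12.01 in NOD.scid and 11.76 to 11.80 in NOD. The part of any of these cell types in the Car2 and Car1 values was not tested.

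Genes of duct cells, which also hold Car2, were read from the same arrays. Of 13 measured, none passed between NOD.scid and NOD by limma, and 4 had an unadjusted p under 0.05. Krt19, a keratin of duct cells, read 4.75 and 4.93 in BDC2.5/NOD.scid and 4.62 and 4.89 in BDC2.5/NOD, against 5.58 and 5.14 in NOD.scid and 5.10 and 5.29 in NOD. Its NOD.scid and NOD arrays overlapped. With the transgene in NOD.scid, Tff2 fell by 0.72 (limma adjusted p = 5.54e-05) and Cldn7, a tight junction protein, by 0.53 (limma adjusted p = 0.0243). These were the 2 of 13 that were lower, against 4.03% of all probe sets. The median of the duct list was 0.06 for NOD.scid against NOD (0.03 over all probe sets) and -0.14 for the transgene in NOD.scid (-0.01 over all). In NOD, only Muc1, a membrane mucin, passed, 1 of 13 against 7.97% of all in either direction, and it rose by 0.56 (limma adjusted p = 0.0157). Between BDC2.5/NOD.scid and BDC2.5/NOD, where Car2 was higher, 2 of the 13 genes of the duct list were lower (5.35% of all probe sets). These were Muc1 at -0.58 (limma adjusted p = 0.0117) and Tff2 at -0.52 (limma adjusted p = 0.000858). The interaction passed for 3 of 13 (4.72% of all in either direction), all lower like that of Car2, namely Muc1, Cldn7 and Tff2. Tff2 read 11.20 and 11.13 in BDC2.5/NOD.scid and 11.65 and 11.71 in BDC2.5/NOD, against 11.88 and 11.89 in NOD.scid and 11.71 and 11.72 in NOD. Its NOD.scid arrays were thus above all others, by a difference of 0.17 from NOD that did not pass (limma adjusted p = 0.312). The summed duct level was 11.63 to 11.65 in BDC2.5/NOD.scid and 12.06 to 12.13 in BDC2.5/NOD, against 12.21 to 12.24 in NOD.scid and 12.05 to 12.06 in NOD. Tff2 is a trefoil peptide, as Tff1 is, and whether its signal came from duct cells was not tested. Without Tff2, the brightest gene of the list, the other 12 read 9.76 to 9.85 in BDC2.5/NOD.scid and 10.05 to 10.13 in BDC2.5/NOD. They read 9.89 to 10.04 in NOD.scid and 9.76 to 9.86 in NOD, so BDC2.5/NOD was then highest.

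**Figure D3:**
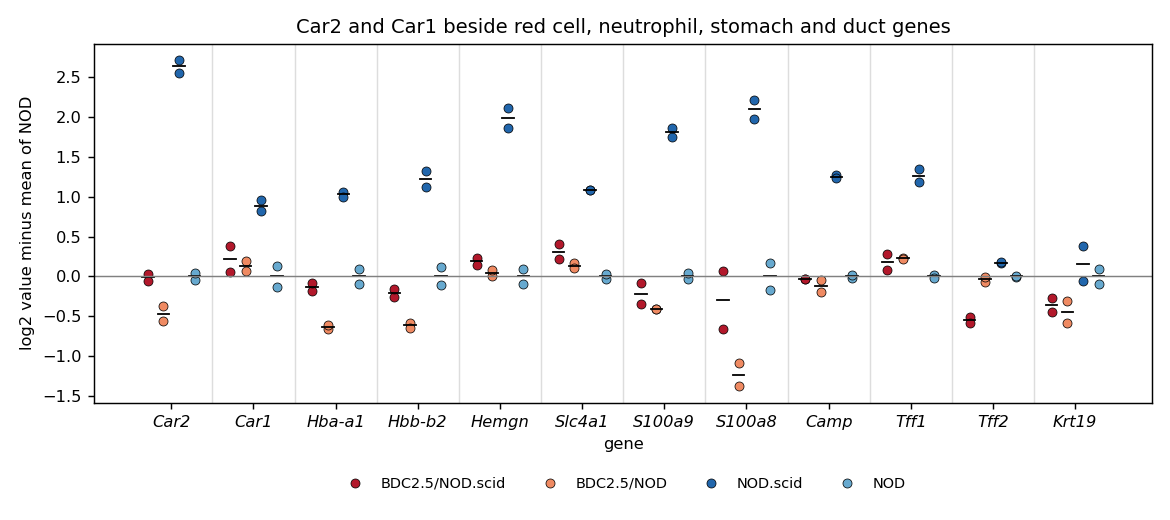
Log2 values of Car2 and Car1 beside red cell genes (Hba-a1, Hbb-b2, Hemgn, Slc4a1), neutrophil genes (S100a9, S100a8, Camp), a stomach gene (Tff1) and genes of the duct list (Tff2, Krt19), each minus the mean of its NOD arrays. Points are single arrays and short lines are means of 2. The NOD.scid arrays stand above the rest for Car2, Car1 and the red cell, neutrophil and stomach genes shown and, by less, for Tff2, and overlap the NOD arrays for Krt19. The genes shown were picked from their lists. Among those not shown, Gata1 and Epb42 of the red cell list and Cdx1 of the stomach and gut list were not highest in NOD.scid.

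Car3, the low-activity enzyme of fat, liver and muscle, followed another order. It read 4.49 and 4.10 in BDC2.5/NOD.scid and 5.03 and 5.03 in BDC2.5/NOD, against 4.69 and 4.65 in NOD.scid and 5.33 and 5.88 in NOD. Both groups with scid lay below both groups without it, and no 2 groups overlapped. Car3 was lower in NOD.scid than in NOD, by a log2 difference of -0.94 (SE 0.17, 1.91-fold; limma adjusted p = 0.0108). With the transgene it was lower with scid as well, at -0.73 for BDC2.5/NOD.scid minus BDC2.5/NOD (SE 0.17, 1.66-fold; limma adjusted p = 0.0162). The 2 scid differences differ by the interaction, which was 0.20 for Car3 (95% interval -0.30 to 0.71; limma adjusted p = 0.741). Without the 3 arrays of high actin control the interaction was 0.70 and passed (limma adjusted p = 0.00078), in a fit with 1 residual degree of freedom and a single array in 3 of the groups. These values therefore do not show that the scid differences were alike.

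The transgene differences of Car3 did not pass. They were -0.58 for BDC2.5/NOD minus NOD (95% interval -0.94 to -0.22; limma adjusted p = 0.0524) and -0.37 for BDC2.5/NOD.scid minus NOD.scid (-0.73 to -0.02; limma adjusted p = 0.262). The difference in NOD passed under 10 of 19 alternatives, among them array medians set equal (adjusted p = 0.0296) and the actin control as a term (-0.81, adjusted p = 0.00124). That in NOD.scid passed with the actin control as a term (-0.42, adjusted p = 0.0327).

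The 2 NOD arrays of Car3 were 0.56 apart, and single arrays decided some calls. Without NOD replicate 2, the difference of NOD.scid from NOD was -0.66 (adjusted p = 0.0909), and without NOD.scid replicate 2 it was -0.91 (0.0883). It was -0.64 between the arrays of high and -1.24 between those of low actin control. The difference of BDC2.5/NOD.scid from BDC2.5/NOD had an adjusted p of 0.12 and 0.127 without BDC2.5/NOD replicates 1 and 2, and 0.141 without BDC2.5/NOD.scid replicate 2, at -0.54.

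The gene most like Car3, by the same rule, was Scd1, a desaturase of fat synthesis, at a Pearson r of 0.94 over 8 arrays and 0.99 over the 6 arrays outside NOD. On the probe set that was most alike, Scd1 read 3.97 and 3.52 in BDC2.5/NOD.scid and 4.88 and 4.82 in BDC2.5/NOD, against 4.23 and 4.22 in NOD.scid and 5.21 and 5.20 in NOD. The order of the 4 groups was that of Car3. This probe set was lower in NOD.scid than in NOD, at -0.98 (limma adjusted p = 0.00175), and lower with scid in the presence of the transgene, at -1.105 (limma adjusted p = 0.000227). Another Scd1 probe set gave -1.13 and -1.004 in these comparisons, while the remaining one gave 0.105, which did not pass (limma adjusted p = 0.68), and -0.58 (limma adjusted p = 0.00249). Erdr1 and Adipoq came next, at 0.83 each over 8 arrays and 0.46 and 0.29 over 6. Adipoq encodes the fat cell hormone adiponectin. Ctnnb1, which encodes beta-catenin, had 0.79 and 0.45, and Gcg, which encodes glucagon, 0.75 and 0.36.

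Of 10 adipocyte genes, Adipoq alone passed between NOD.scid and NOD, where 1.61% of all probe sets were lower. It read 4.44 and 4.03 in BDC2.5/NOD.scid and 4.19 and 4.34 in BDC2.5/NOD, against 4.20 and 4.55 in NOD.scid and 5.26 and 5.46 in NOD. The NOD arrays lay above all others, while the other 3 groups overlapped, so its order was not that of Car3. Adipoq was lower in NOD.scid than in NOD, at -0.98 (limma adjusted p = 0.00455), and with the transgene in NOD it fell by 1.10 (limma adjusted p = 0.000893). Lpl, the lipoprotein lipase, fell by 1.08 in that last comparison (limma adjusted p = 0.00032). Adipoq and Lpl were the 2 of 10 that passed there, against 4.06% of all probe sets lower. Between BDC2.5/NOD.scid and BDC2.5/NOD, where Car3 was lower, none of the 10 passed by limma, 1 had an unadjusted p under 0.05, and Adipoq means were 4.23 and 4.26. Between BDC2.5/NOD.scid and NOD.scid none passed either, with 4 at an unadjusted p under 0.05. The summed adipocyte level was 8.24 to 8.34 in BDC2.5/NOD.scid and 8.19 to 8.21 in BDC2.5/NOD, against 8.21 to 8.24 in NOD.scid and 8.46 in NOD. Of 13 skeletal muscle genes, none passed in any comparison by limma, with 1 to 4 at an unadjusted p under 0.05. Their summed level was 8.93 to 9.03 in BDC2.5/NOD.scid and 8.89 to 8.90 in BDC2.5/NOD, against 8.95 to 8.97 in NOD.scid and 8.80 to 8.92 in NOD. The muscle list was not one of slow fibres, and no liver list was read. The part of fat, liver or muscle cells in the Car3 values was not tested.

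**Figure D4:**
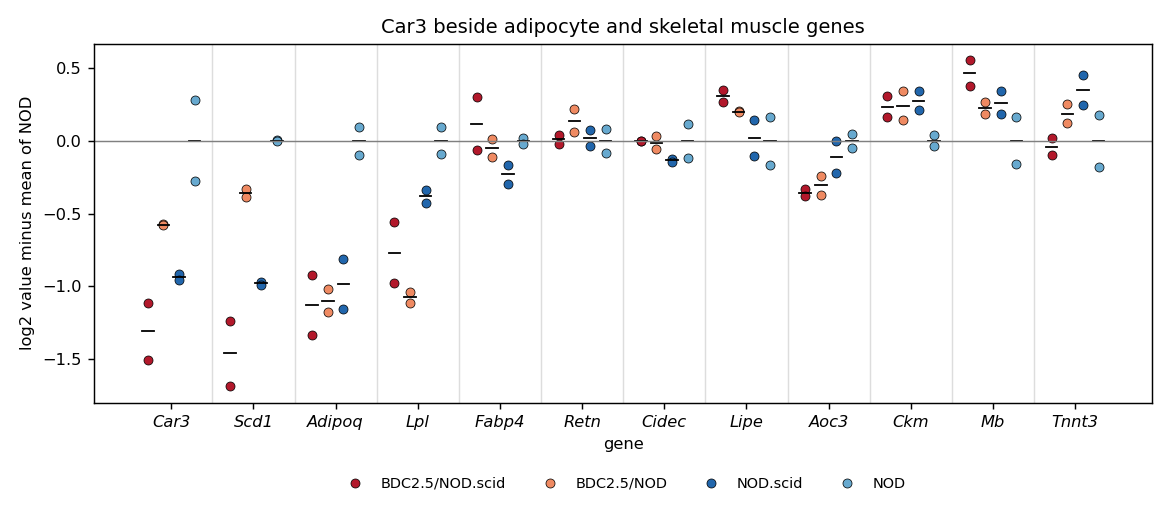
Log2 values of Car3 and Scd1 beside adipocyte genes (Adipoq, Lpl, Fabp4, Retn, Cidec, Lipe, Aoc3) and skeletal muscle genes (Ckm, Mb, Tnnt3), each minus the mean of its NOD arrays; points are single arrays and short lines are means of 2. Car3 and Scd1 are lowest in BDC2.5/NOD.scid, next in NOD.scid and then in BDC2.5/NOD, while Adipoq sits about 1 unit below NOD in all of these groups.

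Car4, the membrane-anchored enzyme, had 2 probe sets. The dimmer one read 3.59 and 3.71 in BDC2.5/NOD.scid and 3.54 and 3.59 in BDC2.5/NOD, against 3.53 and 3.41 in NOD.scid and 3.50 and 3.54 in NOD. All its values were below the median of all probe sets. The brighter one read 4.19 and 4.36 in BDC2.5/NOD.scid and 4.15 and 4.08 in BDC2.5/NOD, against 4.11 and 4.31 in NOD.scid and 4.35 and 4.12 in NOD. Its identifier carries the suffix of probe sets with probes shared by a family of sequences, and its group ranges overlapped except between BDC2.5/NOD.scid and BDC2.5/NOD. The 2 probe sets did not vary together, with a Pearson r of 0.03 over 8 arrays. The largest Car4 difference among the 4 pairs of groups was 0.18 for BDC2.5/NOD.scid minus NOD.scid on the dimmer probe set (95% interval -0.04 to 0.39; limma adjusted p = 0.408). Neither had an unadjusted p under 0.05 in any comparison. Of 10 endothelial genes, none passed in any comparison by limma, with 0 to 3 at an unadjusted p under 0.05.

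Car8, the form without catalytic activity, was the dimmest. It read 2.78 and 2.498 in BDC2.5/NOD.scid and 2.61 and 2.51 in BDC2.5/NOD, against 2.60 and 2.79 in NOD.scid and 2.55 and 2.52 in NOD. Every value was well below that median too, and the background level was not measured here, so a difference may not be detectable at this signal. Between pairs of groups its differences ran from -0.05 for BDC2.5/NOD.scid minus NOD.scid (95% interval -0.30 to 0.19) to 0.16 for NOD.scid minus NOD (-0.08 to 0.41; limma adjusted p = 0.57), and the interaction was -0.08 (limma adjusted p = 0.861). Itpr2, an inositol trisphosphate receptor of type 2, was the only measured one of 3 such receptors listed. It fell by 0.52 with the transgene in NOD (limma adjusted p = 0.00744) and passed in no other comparison. Its other probe sets did not pass in any comparison.

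Of 11 other carbonic anhydrase genes listed, 4 had a probe set, and none passed in any of the 5 comparisons by limma, nor did any have an unadjusted p under 0.05. Car14, a transmembrane enzyme, averaged 5.61 ± 0.14 (SD, n = 2) in BDC2.5/NOD.scid and 5.38 ± 0.04 in BDC2.5/NOD, against 5.59 ± 0.15 in NOD.scid and 5.48 ± 0.06 in NOD. Car6, the secreted enzyme of saliva, lay at 4.84 to 5.13 over the 8 arrays. Car12, a transmembrane enzyme, lay at 3.54 to 3.79, and Car5a, of mitochondria, at 3.40 to 3.79. Their largest difference was 0.23 for Car14 between BDC2.5/NOD.scid and BDC2.5/NOD (limma adjusted p = 0.246). The peak of Car1 and Car2 in NOD.scid therefore had no called counterpart in these 4 genes.

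Of 21 other genes of bicarbonate and fluid secretion listed, 12 were measured. Between NOD.scid and NOD none passed by limma, and 2 had an unadjusted p under 0.05. With the transgene in NOD.scid only Aqp8, a water channel, passed, 1 of 12 against 4.03% of all probe sets lower. It read 5.15 and 4.75 in BDC2.5/NOD.scid, against 5.44 and 5.55 in NOD.scid, and fell by 0.55 (limma adjusted p = 0.0168). With the transgene in NOD, 2 of the 12 rose, where 7.97% of all probe sets passed in either direction. Of the 12, 5 had an unadjusted p under 0.05, including Aqp8 at -0.43 (limma adjusted p = 0.052). Slc9a3r1, a scaffold that holds CFTR at the membrane, rose by 0.51 (limma adjusted p = 0.00568). Cftr, the chloride and bicarbonate channel of duct cells, read 4.66 and 4.93 in BDC2.5/NOD, against 4.31 and 4.38 in NOD, and rose by 0.45 (limma adjusted p = 0.0448) on its brightest probe set, while its other probe sets gave -0.31 and -0.12, which did not pass (limma adjusted p = 0.0665 and 0.632). In the same comparison Car2 fell by 0.47, so Slc9a3r1 and the brightest Cftr probe set rose where Car2 fell. Between BDC2.5/NOD.scid and BDC2.5/NOD, and for the interaction, none of the 12 passed by limma, with 2 and 1 at an unadjusted p under 0.05. The median log2 difference of the list was 0.03 for the transgene in NOD.scid, in NOD and for NOD.scid against NOD, against -0.01, 0.03 and 0.03 over all probe sets.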

How the data were processed

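Per the labels, about 10 ug of total RNA was labelled by the standard Affymetrix procedure, from pooled pancreas RNA. The authors deposited 1 table of values on a log scale, taken as log2 because they reach at most 13.78; how background, probe summary and normalization were handled is not stated in those labels. The deposited log2 values were used as they stand. Of 12488 probe sets, 66 controls were left out. Among the 12422 tested, the platform annotation gave 1 symbol for 10833, several for 396 and none for 1193. Group means were fitted with limma 3.58.1 in R 4.3.3 (4 residual and 8.07 prior degrees of freedom, variance trend, two-sided), after a test on simulated data. Array number limits the precision. A listed gene was read from its brightest probe set of a single symbol. All probe sets of the 5 genes are reported, up to 4 genes per described list by smallest p, all other carbonic anhydrases, and for members whose group means span at least 1, the 5 genes of highest Pearson r. Some plotted genes were picked from the lists, and summed levels without the brightest gene were added, after the values were seen. The genes, lists and alternatives were chosen with earlier results of these data known. Alternatives covered normalization, centring, dim probe sets, variance prior, arrays fitted, title number, array weights, actin control, threshold, moderation and each array left out; leaving out the 3 arrays of high actin control was added after seeing the data. Plots used matplotlib 3.10.9 and pandas 2.3.3.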

Additional observations from a re-analysis of the deposited data

Results flagged for a closer look

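The transgene effect differed between the 2 backgrounds for Car2 and Car1, by limma's test of the interaction. The transgene effect in NOD.scid minus that in NOD was -2.18 on the log2 scale for Car2 (limma adjusted p = 3.64e-06) and -0.80 for Car1 (limma adjusted p = 0.0268). For Car2 the effect was -2.64 in NOD.scid and -0.47 in NOD, and for Car1 -0.67 and 0.13, with both arrays of BDC2.5/NOD.scid below both of NOD.scid for each gene. The Car1 call was lost when any 1 of 5 arrays was left out, and the Car2 call held without each of the 8 arrays in turn. Groups of 2 arrays are too small for a check of single arrays that stand apart.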

How the results depend on the processing

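Of 554 log2 differences of single probe sets recomputed under the alternatives, 491 kept their direction and their side of the threshold, 33 lost and 12 gained the call, and 18 changed sign, none of which passed on either side. The count of 2 carbonic anhydrase probe sets for the transgene in NOD.scid became 3, with Car3 added, with the actin control as a term and 1 without moderation, and was 1 to 2 with single arrays left out. The count of 1 for the transgene in NOD became 2, with Car3 added, under quantile normalization, equal array medians, the filter on dim probe sets, the fit of only the groups compared, array weights, the actin control as a term and without the arrays of high actin control; it was 0 at a threshold of 0.01 and without moderation, and 0 to 2 with single arrays left out. The count of 3 for NOD.scid against NOD was 2, without Car3, at a threshold of 0.01, 1 without moderation, and 1 to 3 with single arrays left out. The count of 2 for scid with the transgene was 0 at 0.01 and without moderation, and 0 to 2 with single arrays left out. The count of 2 for the interaction was 3, with Car3 added, without the arrays of high actin control, 1 at 0.01 and without moderation, and 1 to 2 with single arrays left out. Without moderation each test has 4 degrees of freedom, and an array left alone in its group is assumed to vary like the others. Changes of sign were small. With the actin control as a term, Car8 was at -0.091 for the transgene in NOD and 0.013 for the interaction. Without the arrays of high actin control, where 1 residual degree of freedom remains, the brighter Car4 probe set was at -0.12 for the transgene in NOD.scid, 0.18 for NOD.scid against NOD and -0.10 for the interaction. With single arrays left out, the ranges that crossed 0 were -0.20 to 0.09, -0.019 to 0.077, -0.062 to 0.22 and -0.23 to 0.06 for Car8 (transgene in NOD.scid, in NOD, scid with the transgene, interaction), -0.031 to 0.17 and -0.14 to 0.085 for the brighter Car4 probe set (transgene in NOD.scid, NOD.scid against NOD), -0.11 to 0.009 for the dimmer one (NOD.scid against NOD), -0.071 to 0.25 for Car1 (scid with the transgene) and -0.074 to 0.48 for Car3 (interaction). The cause of these changes was not tested.

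Over all probe sets, the count for the transgene in NOD.scid was 795 and ranged over the alternatives from 161 to 1418. It was 990 and ranged from 56 to 2179 for the transgene in NOD, 292 and 25 to 1489 for NOD.scid against NOD, 1037 and 112 to 2138 for scid with the transgene, and 586 and 46 to 1621 for the interaction; the lowest were without moderation and the highest without the arrays of high actin control. Deviations of same-numbered arrays had correlations of -0.32 to 0.29 between groups, so the numbers were not taken to pair the arrays. The highest was between NOD.scid and NOD, whose replicates 1 both had a high actin control. The lowest was between NOD and BDC2.5/NOD.scid, whose arrays of high actin control differ in number. With the replicate number as a block, the counts of carbonic anhydrase probe sets were 2, 1, 3, 2 and 2 and the block changed no call; Car2 was at -2.64 for the transgene in NOD.scid (limma adjusted p = 1.49e-07). Signal over background was not measured and may limit Car4 and Car8. Their values lay near or below the median over all tested, as did those of Car2 and Car1 outside NOD.scid.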
